A study of Arabidopsis thaliana with 18 samples.

Results

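The genes described here are those of the Arabidopsis thaliana plastid genome that encode subunits of the photosynthetic complexes. They were found as the probe sets naming exactly 1 gene whose locus tag starts with ArthCp and whose symbol is rbcL or starts with psa, psb, pet, ndh or atp. There were 43 such probe sets, 1 for each of 43 genes, among 22810 on the array: 5 for photosystem I, 15 for photosystem II, 6 for the cytochrome b6f complex, 10 for the NDH complex, 6 for the ATP synthase and 1 for the large subunit of Rubisco. The probe set for ndhB names both copies of that gene and so lay outside the rule. Another 26 probe sets name other chloroplast-encoded genes.

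The arrays were Affymetrix ATH1 arrays, 18 in all, each hybridised with biotin-labelled material from total RNA of the accession Col-0. The 9 SA arrays, numbered 10 to 18 in their titles, came from plants given 0.30 mM salicylic acid (SA) in 0.02% silwet, a wetting agent. The 9 silwet arrays, numbered 1 to 9, came from plants given 0.02% silwet alone, so silwet was common to both groups. Titles number the arrays replicate 1, 2 or 3 in turn, so that each run of 3 title numbers, called a triplet here, holds 1 array of each replicate number; the labels do not say what a triplet is, nor the tissue, the plants' age or the time of harvest. Whether arrays of a group came from separate plants or cultures is not stated, and each p-value therefore rests on a spread that may be technical.

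Photosystem II splits water and passes electrons through the cytochrome b6f complex to photosystem I, while the NDH complex returns electrons from the photosystem I side to the plastoquinone pool. The ATP synthase uses the resulting proton gradient, and Rubisco fixes carbon dioxide with the products. Each complex also needs subunits encoded in the nucleus, and most plastid genes are transcribed together in polycistronic units whose transcripts are processed and degraded at rates that differ from gene to gene.

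Gene values are log2 MAS5 signals, raised to each array's 20th percentile where lower, and a difference of 1 is a doubling; levels of different probe sets are not compared with each other. Of the 43 genes, 42 passed the filter on low mean signal, the exception being ndhF, a core membrane subunit of the NDH complex that lay between 2.87 and 5.18 on the SA arrays and between 2.31 and 3.92 on the silwet arrays. Only ndhH on array 10 lay at the floor. In bulk tissue, fewer cells with chloroplasts and less plastid RNA in each cell cannot be told apart. Of the 20 tissue markers listed, 2 are named by the annotation: RCA, the Rubisco activase of green tissue, lay between 11.12 and 11.87 on SA arrays and between 11.24 and 11.69 on silwet arrays, and PYK10, a root beta-glucosidase, lay between 5.32 and 7.35 on SA arrays and between 5.31 and 8.03 on silwet arrays.

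One array stood apart before any comparison. On SA array 10 (replicate 1, first triplet) 31 of the 43 genes, 72.1%, lay below all other 17 arrays, against 10.5% of the 13652 tested probe sets, and 36 were at least 2-fold below the mean of the other 8 SA arrays, against 5.6% of tested probe sets. The median difference of the 43 genes was -2.12, beside -0.03 over all tested probe sets, -1.84 over the 26 other chloroplast-encoded probe sets and -0.15 over the 16 nuclear photosynthesis probe sets, none of which lay below all other arrays. The 13 tested probe sets with mitochondrial nad, cox or ccb symbols had a median of -0.43, and 5 of them lay below all other arrays. Control probe sets on this array also differed. The log2 ratio of the 3′ to the 5′ actin probe set was 6.85 on array 10, against 0.15 to 1.51 on the other arrays, and that of GAPDH was 3.36 against -0.06 to 1.32. The cytosolic 25S ribosomal RNA probe set read -0.66 on array 10 and 2.02 to 3.90 elsewhere; control values are given without the floor, and this one lay below its array's floor on 9 of the 18 arrays. The ubiquitin ratio of 0.93 on array 10 lay inside the 0.11 to 1.06 of the other arrays. Whether the RNA or target of array 10 set the low plastid signals was not tested, and the comparisons below are given with and without it.

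**Figure D1:**
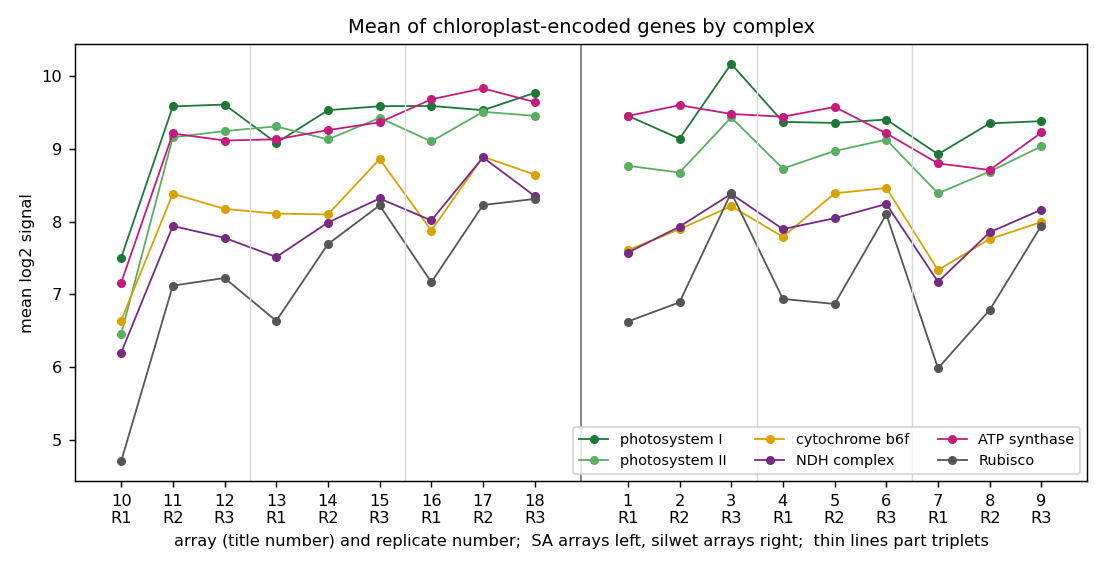
Mean log2 signal of the chloroplast-encoded genes of each complex (vertical axis) on each array (horizontal axis, with its replicate number R1 to R3), SA arrays left and silwet arrays right; Rubisco is rbcL alone. On array 10 the means were 7.5 for photosystem I, 6.46 for photosystem II, 6.64 for cytochrome b6f, 7.16 for the ATP synthase and 4.71 for rbcL, each below all other arrays.

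The deficit on array 10 was uneven, from -5.49 to 0.07 among the genes. In photosystem II, psbH, a small phosphoprotein, read 4.28 on array 10 and 9.77 ± 0.31 on the other SA arrays (SD, n = 8), a difference of -5.49 that was the most negative of all 13652 tested probe sets in this comparison. The core antenna protein gene psbC had the difference of rank 3, 4.65 on array 10 against 9.85 ± 0.44 on the other 8, and psbA, for the D1 reaction centre protein that light damages and that is turned over rapidly, had rank 4, 5.07 against 10.05 ± 1.33. These ranks take no account of the replicate number, and array 10 is a replicate 1 array. Against SA arrays 13 and 16 alone, which carry the same number, the difference was -5.38 for psbH (rank 3), -5.11 for psbC (rank 6) and -2.98 for psbA (rank 104), while the median of the 43 genes was -2.13, with 42 of them lower on array 10, beside -0.08 over all tested probe sets. At the other end psbM, a small subunit at the dimer interface, read 11.38 on array 10, a difference of 0.02. Photosystem II thus held both the deepest deficits and a gene with none, around a median of -2.71 with 12 of 15 genes below all other arrays.

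In photosystem I, psaA, which encodes 1 of the 2 large reaction centre proteins, differed by -4.06 and psaC, the iron-sulphur subunit that hands electrons to ferredoxin, by -3.71, while psaB, the partner of psaA, differed by -0.88 and psaJ, a small peripheral subunit, by 0.07. In the NDH complex the differences ran from -3.70 for ndhH, whose array 10 value was at the floor so that its deficit may be larger, to -0.15 for ndhC. All 6 ATP synthase genes lay below all other arrays, from atpA, the catalytic-head alpha subunit, at -3.17 to atpE, the epsilon subunit, at -0.55. The cytochrome b6f genes had the median nearest to 0, -1.36, with 2 of 6 below all other arrays. For rbcL the difference was -2.87, 4.71 on array 10. The genes psbC, ndhC, ndhH and atpA were chosen for mention after their values were seen, as were the neighbours named next.

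**Figure D2:**
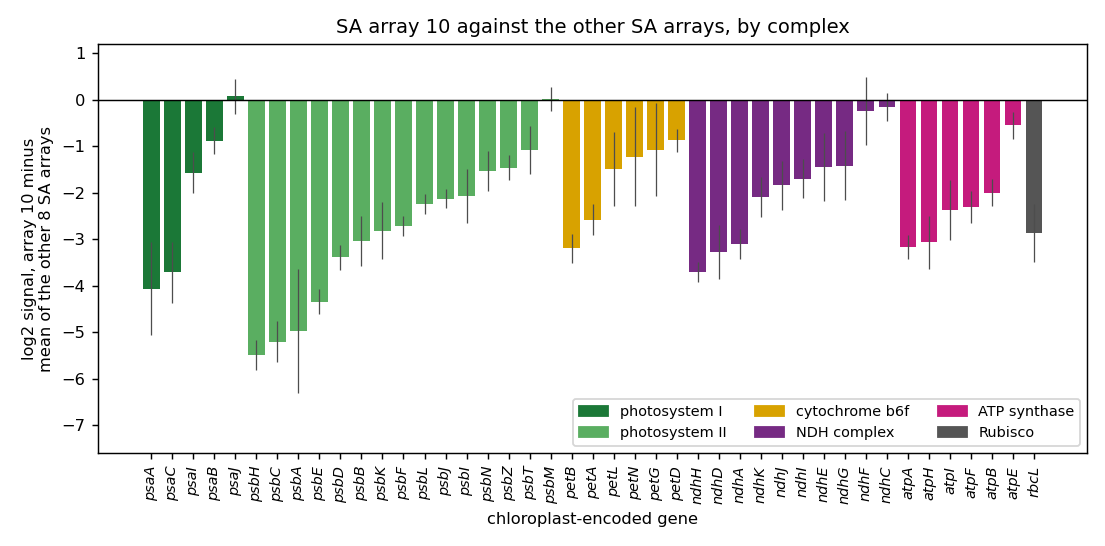
Log2 signal on SA array 10 minus the mean of the other 8 SA arrays (vertical axis) for each of the 43 genes (horizontal axis), coloured by complex; error bars are the SD of those 8 arrays. Bars run from -5.49 for psbH to 0.07 for psaJ.

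Genes transcribed together did not share 1 value. In the psbB unit, psbH differed by -5.49, petB by -3.19, psbB by -3.04, psbT by -1.08 and petD by -0.87. In the psbE unit, psbE differed by -4.34, psbF by -2.71, psbL by -2.24 and psbJ by -2.12, the order in which the genes are transcribed. The psbB, psbD and ndhC units did not follow their gene order in this way. The petL unit held petL at -1.49, petG at -1.07 and psaJ at 0.07. In the atpB unit, atpB, the beta subunit, differed by -2.0 and atpE by -0.55. The ndhC unit held ndhC at -0.15, ndhK at -2.10 and ndhJ at -1.84. In the psbD unit, psbD differed by -3.39, psbC by -5.20 and psbZ by -1.46. Values of the atpI unit lay closer together, with atpI at -2.37, atpH at -3.06, atpF at -2.31 and atpA at -3.17. Units were taken from textbook knowledge and not from these files. Across the 43 genes, which share 1 library, Spearman's rho of the array 10 difference was -0.354 with gene length and -0.074 with the mean level on the other 8 SA arrays, given as a description. The 12 genes shorter than 150 bases had a median of -1.51 and the 31 longer ones -2.82.

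Replicate numbers, the second pattern, were compared to ask which of these genes differed between replicate series whatever the treatment. Replicate 3 arrays were higher than replicate 1 arrays in 40 of the 42 tested genes, with a median difference of 0.67, beside -0.03 over all tested probe sets, of which 45.3% were higher. Replicate 2 arrays were higher than replicate 1 arrays in 33 of 42, with a median of 0.42 beside 0.00. Without array 10, replicate 3 over replicate 1 had a median of 0.26 with 34 of 42 genes higher, beside -0.04 over all tested probe sets, and replicate 2 over replicate 1 a median of 0.05 with 25 of 42 higher, beside -0.005. By complex, the median replicate 3 minus replicate 1 difference was 0.44 over the 5 photosystem I genes, 0.64 over the 15 of photosystem II, 0.67 over the 6 of cytochrome b6f, 0.81 over the 9 tested of the NDH complex and 0.30 over the 6 of the ATP synthase. Without array 10 these medians were 0.33, 0.14, 0.21, 0.51 and -0.05 in the same order of complexes, so that the ATP synthase genes no longer had a positive one. The F test of limma over the 3 replicate numbers called 4 genes after Benjamini-Hochberg adjustment, 9.52% of those tested, against 0.711% of all tested probe sets. They were psbA, petL, petN and atpI, and in each the replicate 1 arrays were the low ones.

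For psbA the replicate 3 arrays had a lowest, median and highest signal of 10.24, 11.12 and 11.24, the replicate 2 arrays 9.26, 10.22 and 11.07, and the replicate 1 arrays 5.07, 7.78 and 8.78. Replicate 1 overlapped neither of the others. Replicate 3 exceeded replicate 1 by 3.53 ± 0.50 (SE), an 11.6-fold difference, and replicate 2 exceeded it by 2.70 ± 0.50 (limma F test, adjusted p = 0.00502). The call held with each of the 18 arrays left out in turn (limma, adjusted p between 0.00202 and 0.0228), and the 3.53 became 3.03 without array 10. Within treatments, replicate 3 exceeded replicate 1 by 3.81 on SA arrays, or 2.82 without array 10, and by 3.25 on silwet arrays.

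For petL, a small cytochrome b6f subunit, the replicate 3 arrays had a lowest, median and highest signal of 9.20, 9.96 and 10.07, the replicate 2 arrays 9.36, 9.54 and 10.40, and the replicate 1 arrays 7.85, 8.05 and 8.72. Again replicate 1 stood clear below both. The differences were 1.68 ± 0.20 for replicate 3 over 1 and 1.53 ± 0.20 for replicate 2 over 1 (limma F test, adjusted p = 0.000817), and this call too held with each array left out (adjusted p up to 0.00429 by limma). In SA arrays the first was 1.56, or 1.42 without array 10, and in silwet arrays it was 1.80.

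For petN, another small subunit of the same complex, the replicate 3 arrays ran from 6.37 through a median of 7.78 to 8.13, the replicate 2 arrays from 7.13 through 7.27 to 9.33, and the replicate 1 arrays from 4.45 through 6.06 to 6.38. Replicate 3 touched replicate 1 through SA array 12 alone, and replicate 2 lay clear above it. The differences were 1.83 ± 0.38 and 1.82 ± 0.38 over replicate 1 (limma F test, adjusted p = 0.0323). This call was lost in 12 of the 18 fits that left out 1 array, where the adjusted p from limma ran from 0.00764 to 0.103; it held without silwet array 8 or SA array 10, 11, 12, 14 or 17. Without array 10 the differences were 1.86 and 1.85.

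For atpI, the a subunit of the proton channel, replicate 2 was the high series. Its arrays ran from 5.52 through 5.98 to 6.61, against 4.78, 5.18 and 5.64 on replicate 3 arrays and 3.08, 4.45 and 5.12 on replicate 1 arrays. Replicate 2 exceeded replicate 1 by 1.82 ± 0.32 and replicate 3 exceeded it by 1.02 ± 0.32 (limma F test, adjusted p = 0.0291). Replicates 2 and 1 did not overlap, while replicates 3 and 1 did. The call was lost without silwet array 2, 5, 6 or 7 or SA array 17, with an adjusted p from limma of up to 0.076. Without array 10 the call held, with differences of 1.57 for replicate 2 and 0.78 for replicate 3.

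For rbcL the replicate 3 arrays ran from 7.23 through 8.16 to 8.40, the replicate 2 arrays from 6.79 through 7.01 to 8.23, and the replicate 1 arrays from 4.71 through 6.63 to 7.17. Replicates 3 and 1 did not overlap, yet the difference of 1.69 ± 0.36 missed the threshold (limma F test, adjusted p = 0.0721). Without array 10 it was 1.33 and passed (adjusted p = 0.0459), as did ndhD, a membrane subunit of the NDH proton-pumping arm, at 1.13 and psaC at 1.3, so that the count of called genes was 7 of 42, beside 1.03% of tested probe sets. With all arrays, and treatment-and-triplet groups in place of treatment in the fit, rbcL was called too (limma F test, adjusted p = 0.00571).

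Every replicate 3 array lay above every replicate 1 array in 6 of the 43 genes, 14.0%, against 0.667% of tested probe sets: psbA, rbcL, petL, psbB, ndhD and psaC. The same 6 genes were separated without array 10, beside 0.974%. Replicate 2 lay wholly above replicate 1 in 6 genes as well, psbA, atpI, petN, petL, ndhD and ndhG, against 0.791%, and the same 6 did so without array 10, beside 1.36%. No gene lay wholly below in either comparison, where 1.45% (replicate 3) and 0.974% (replicate 2) of tested probe sets did. The genes psbB and ndhG were named after their values were seen. By contrast, psaJ differed between replicates 3 and 1 by 0.09 ± 0.15, atpE by 0.15 ± 0.14 and psbM by 0.21 ± 0.12, and none of these passed; without array 10 they were 0.09, 0.07 and 0.23.

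Since same-numbered SA and silwet arrays deviated together, the fits were also made with the replicate number as a block beside treatment or the treatment-and-triplet groups. The comparison of replicate numbers already held that term, so there the change was treatment-and-triplet groups in place of treatment. That fit called 12 of 42 genes across replicate numbers, 28.6% beside 8.49% of tested probe sets, all with higher means in replicate 3 than in replicate 1. Without array 10 it called 14, beside 9.74%. The 12 were psbA and psbB of photosystem II, psaC and psaI of photosystem I, petL and petN of cytochrome b6f, ndhD, ndhE, ndhG and ndhJ of the NDH complex, atpI and rbcL, of which psaI, ndhE and ndhJ were also named after their values were seen. No gene was called for a replicate by treatment interaction, and none had an unadjusted p under 0.05 there, beside 0 called and 40 at that p over all tested probe sets (limma).

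Controls moved with the replicate numbers. The mean of the spiked control probe sets lay between 8.16 and 8.57 on replicate 3 arrays apart from array 12 at 6.62, between 7.26 and 8.25 on replicate 2 arrays and between 7.38 and 7.67 on replicate 1 arrays. The 25S ribosomal RNA probe set lay between 2.54 and 3.90 on replicate 3 arrays and between 2.02 and 2.40 on replicate 1 arrays other than array 10. This probe set was below the floor on every replicate 1 array (1, 4, 7, 10, 13 and 16) and on replicate 2 arrays 8, 11 and 14. Their part in the result was not tested. Among the 24 tested probe sets for other chloroplast-encoded genes the median of replicate 3 over replicate 1 was 0.75 with all arrays and 0.35 without array 10. Among the 16 nuclear photosynthesis probe sets it was 0.16 with all arrays and 0.14 without array 10. Across replicate numbers limma called 0 of these 16, beside 0.711% of tested probe sets. At an unadjusted p under 0.05 there were 0 of them, beside 2148 of 13652.

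**Figure D3:**
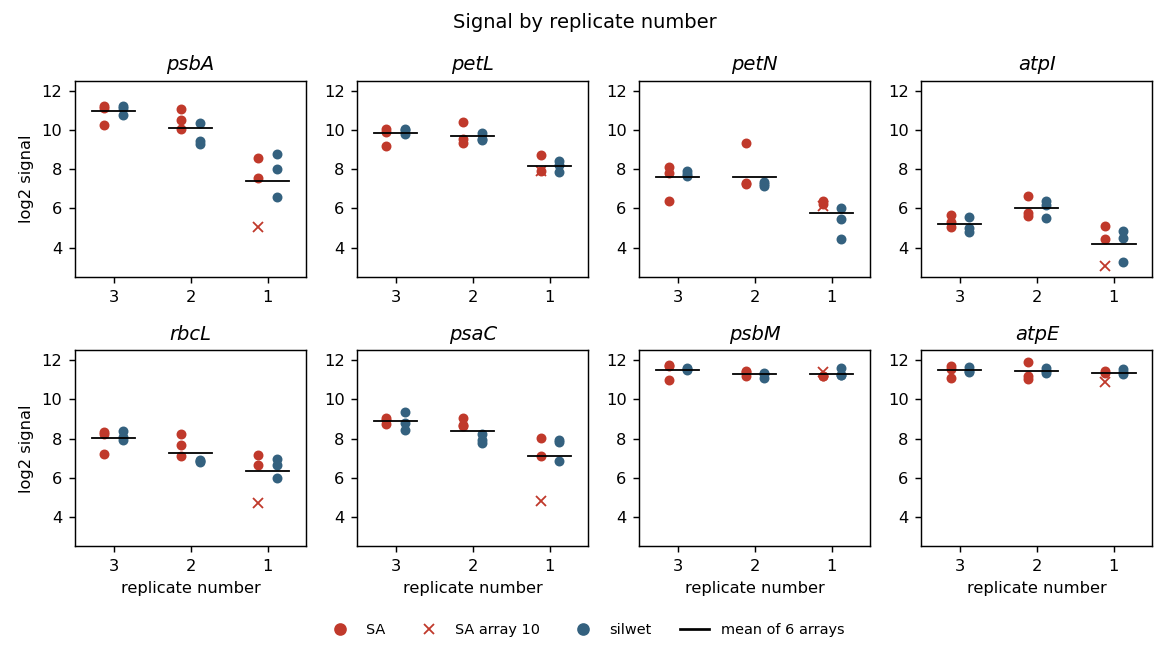
Log2 signal (vertical axis) by replicate number (horizontal axis, 3 to 1) for 8 genes, SA arrays left and silwet arrays right within each number, array 10 as a cross, and lines at the mean of 6 arrays. For psbA replicate 1 lies between 5.07 and 8.78, below both other series, while psbM lies between 11.01 and 11.78 over all arrays.

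Treatment was compared over all arrays to ask which genes differed between SA and silwet plants. No gene was called, as for all tested probe sets, where limma called 0 of 13652 and 238 had an unadjusted p under 0.05. Of the 42 genes, 4 had such a p, namely petG, psbN, psbT and psbK, all with higher means on SA arrays. The median of the 42 was -0.04 with 14 higher and 28 lower, beside -0.03 over all tested probe sets; without array 10 it was 0.20 with 32 higher and 10 lower, beside -0.02.

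The gene petG, for a small membrane subunit that the cytochrome b6f complex needs in tobacco, had the widest difference of the 42. Its signals were 4.74, 6.07, 6.84, 7.16, 5.34, 6.45, 4.22, 4.88 and 5.58 on SA arrays 10 to 18, against 4.56, 3.90, 2.99, 4.73, 4.74, 5.27, 4.87, 3.00 and 2.51 on silwet arrays 1 to 9. On silwet arrays 9 and 3, both of replicate 3, petG lay near the floor, at 2.51 against a floor of 2.48 and 2.99 against 2.74. The SA and silwet ranges overlapped, but in the first and second triplets every SA array lay above every silwet array of the same triplet. The difference was 1.63 ± 0.43 (SE), or 3.11-fold (limma, unadjusted p = 0.00129, adjusted p = 1.00), and it was 2.70 within replicate 3, 1.55 within replicate 2 and 0.65 within replicate 1, or 0.97 there without array 10. Without array 10 the overall difference was 1.75 ± 0.44 (limma, adjusted p = 1.00). Its differences in the 3 triplets were 2.07, 1.4 and 1.44. In the first triplet it missed the threshold with all arrays (limma, adjusted p = 0.05004) and passed it without array 10, at 2.64 ± 0.66 (limma, adjusted p = 0.0216), as the only 1 of the 42 beside 9.68% of tested probe sets, and, with the replicate number as a block as well, at 2.85 (adjusted p = 0.0120). Over all arrays its neighbours in the unit differed by -0.03 ± 0.38 (petL) and -0.05 ± 0.13 (psaJ). In the second triplet, the block fit without array 10 called 1 gene, psbI, a small photosystem II subunit named after its values were seen, at 1.05 ± 0.21 (limma, adjusted p = 0.0410), beside 0.498% of tested probe sets.

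The other 3 belong to photosystem II by name, although psbN encodes an assembly factor and not a subunit. psbN averaged 4.92 ± 0.65 on SA arrays and 4.14 ± 0.55 on silwet arrays (SD, n = 9 each), a difference of 0.79 ± 0.27 (SE), or 0.96 ± 0.23 without array 10. psbT, a small subunit near the reaction centre, averaged 6.46 ± 0.60 on SA arrays and 5.80 ± 0.53 on silwet arrays, a difference of 0.66 ± 0.25, or 0.78 ± 0.24 without array 10. psbK, a small subunit next to the CP43 antenna, averaged 9.21 ± 1.1 on SA arrays and 8.43 ± 0.49 on silwet arrays, a difference of 0.78 ± 0.37, or 1.09 ± 0.25 without array 10. The SA and silwet ranges overlapped in all 3, and none passed after adjustment with or without array 10.

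**Figure D4:**
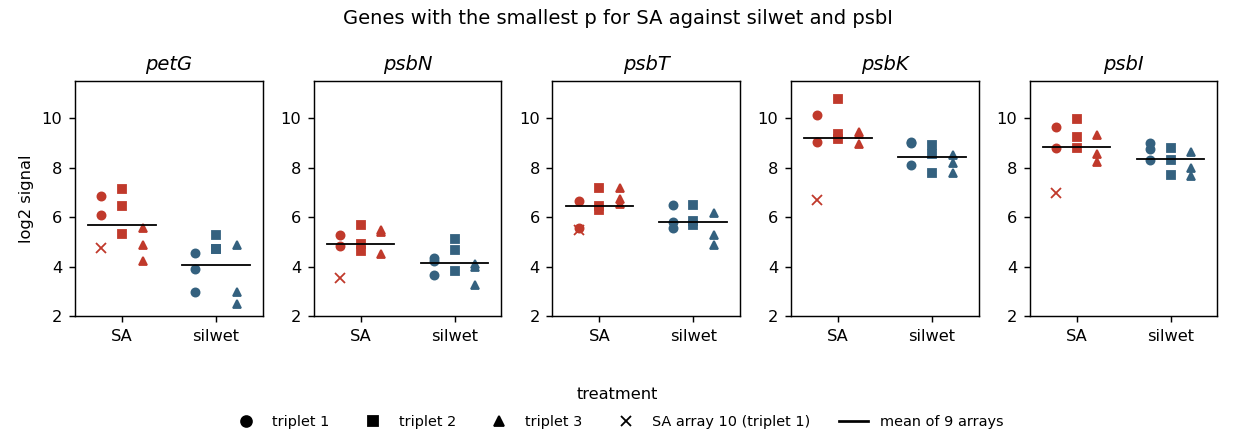
Log2 signal (vertical axis) on SA and silwet arrays (horizontal axis) for 5 genes, with marker shapes for triplets, array 10 as a cross and lines at the mean of 9 arrays. In petG the SA mean is 5.70 and the silwet mean 4.06.

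Triplets were compared to follow the SA minus silwet difference along the title numbers. SA arrays were lower than silwet arrays in 39 of 42 genes in the first triplet, with a median of -0.75 beside -0.05 over all tested probe sets, level in the second, with a median of 0.01 and 21 genes each way, and higher in 41 of 42 in the third, with a median of 0.59 beside -0.02. Without array 10 the first triplet had a median of -0.12 with 26 of 42 lower. That comparison is not matched by replicate number, since SA arrays 11 and 12 are then set against silwet arrays 1, 2 and 3. The mean of the spiked control probe sets also moved with the triplets: it was 7.25 on SA arrays (7.13 without array 10) and 7.94 on silwet arrays in the first, 7.76 on SA arrays and 8.03 on silwet arrays in the second, and 8.15 on SA arrays and 7.79 on silwet arrays in the third. Their part in the result was not tested.

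By complex, the mean SA minus silwet difference in the first triplet was -0.69 for photosystem I, -0.67 for photosystem II, -0.17 for cytochrome b6f, -0.66 for the NDH complex, -1.01 for the ATP synthase and -0.95 for rbcL. Without array 10 these were 0.01, 0.24, 0.37, -0.10, -0.35 and -0.13 in the same order of complexes. In this unmatched comparison only the NDH complex, the ATP synthase and rbcL kept a negative sign. It leaves no replicate 1 array, mostly the low series in these genes, on the SA side. With the replicate number as a block as well, the rbcL difference without array 10 was -0.49 in place of -0.13. In the third triplet they were 0.41, 0.65, 0.77, 0.69, 0.81 and 0.99. No gene was called in the third triplet, where 2 of 13652 were called over all tested probe sets, or 0.0146%. At an unadjusted p under 0.05 by limma there were 3 of 42, beside 634 of 13652. Under the replicate block the count called was again 0, beside 0.0513%, and without array 10 as well 0, beside 0.022%. In the second triplet 0 of 42 were called, beside 0.3%. There 1 had an unadjusted p under 0.05 by limma, beside 782 of 13652.

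In the first triplet 1 gene was called, 2.38% of those tested against 12.3% of all tested probe sets. Of all tested probe sets 6.19% were called higher and 6.11% lower. The gene was atpE, whose signals were 10.87, 11.20 and 11.12 on SA arrays 10, 11 and 12, against 11.56, 11.46 and 11.67 on silwet arrays 1, 2 and 3. The groups did not overlap, and the difference was -0.50 ± 0.14 (SE; limma, adjusted p = 0.0299), or -0.40 ± 0.16 without array 10 (adjusted p = 0.113). The call was also lost without silwet array 1, silwet array 3 or SA array 12. In the third triplet atpE read 11.47, 11.89 and 11.70 on SA arrays 16, 17 and 18, against 11.40, 11.37 and 11.40 on silwet arrays 7, 8 and 9, again without overlap and the other way round. The triplet by treatment interaction called atpE (limma, adjusted p = 0.0476), 2.38% of genes tested beside 8.36% of all tested probe sets, but the call was lost in 15 of the 18 fits without 1 array, all but those without SA array 14, 15 or 16 (adjusted p up to 0.118).

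With the replicate number as a block, 5 genes were called lower on SA arrays in the first triplet, 11.9% beside 18.5%: atpE, atpI, psaB, psaI and ndhI. Without array 10 that fit called 2, ndhI lower and petG higher, 4.76% beside 16.7%. The interaction called 2 genes, atpB and atpH, when array 10 was left out, 4.76% beside 7.11%. It called 6 under the block, 14.3% beside 13.4%, and 8 without array 10, 19% beside 13.6%. The first-triplet shares were thus below the background, and the interaction shares lay on both sides of it.

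Array by array, SA signals lay wholly below silwet signals in the first triplet for 9 of 43 genes, 20.9% against 17.8% of tested probe sets. They were atpH, the ring subunit c, atpB, atpE, psaB, petA for cytochrome f, petB for cytochrome b6, psbE for a cytochrome b559 subunit, psbH and ndhI, an iron-sulphur subunit. The same 9 lay below without array 10, then against 24.5%. In the third triplet SA signals lay wholly above silwet signals for 15 of 43 genes, 34.9% against 4.38% of tested probe sets, and in no gene wholly below. These included atpB, atpE, atpH, psaB, petB and psbH from the earlier 9. For atpB the first triplet gave 9.60, 11.37 and 11.32 on SA arrays 10, 11 and 12, against 11.71, 11.72 and 11.61 on silwet arrays 1, 2 and 3, and the third gave 11.74, 12.10 and 11.88 on SA arrays 16, 17 and 18, against 11.52, 11.54 and 11.49 on silwet arrays 7, 8 and 9.

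The 3 triplets of the SA arrays were then set against each other. limma's F test called 4 of 42 genes, 9.52% beside 30.1% of tested probe sets: atpE (adjusted p = 0.00860), ndhI (0.0229), atpB (0.0291) and atpH (0.0319). For atpH the SA arrays read 5.49, 7.90 and 8.22 in the first triplet, 8.53, 7.95 and 8.43 in the second and 9.41, 9.34 and 8.61 in the third. For ndhI they read 9.43, 10.88 and 10.66, then 10.80, 10.77 and 11.52, then 11.07, 11.68 and 11.64. In both genes the third triplet lay wholly above the first. Leaving out 1 array lost the call of atpB without SA array 17 or 18, of atpH without SA array 16 or 17 and of ndhI without SA array 10, 17 or 18, and never that of atpE. Without array 10 the count was also 4, with petB in place of ndhI, beside 26.3%; with the replicate number as a block it was 13, or 31% beside 37%. Among silwet triplets limma called no gene, beside 1.14% of tested probe sets. None of these genes had an unadjusted p under 0.05 there, beside 1316 of 13652. No gene was called without array 10 either (beside 1.39%), nor under the block (1.82%) or both (2.12%).

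Of the nuclear genes for the same complexes, the annotation names 16 tested probe sets from 7 of the 9 lists. In the first triplet 2 of 16 were called, a share near the 12.3% of all tested probe sets. They were NdhN (-0.66 ± 0.18, limma, adjusted p = 0.0215) and NdhL (-0.57 ± 0.18, limma, adjusted p = 0.0454). Both are subunits of the NDH complex and both were lower on SA arrays. Both calls held without array 10 (limma, adjusted p = 0.0173 and 0.0409), beside 9.68% of tested probe sets. The median of the 16 was -0.32 in the first triplet with 15 of 16 lower, and 0.26 in the third with 14 of 16 higher. Across the SA triplets 8 of 16 were called, 50.0% beside the 30.1% of tested probe sets: PSAE-1, PSAN, PGRL1B, ATPC1, NdhL, NdhN, NdhS and LHCB4.2. Without array 10 the count was 10 of 16, the same 8 with PSB27 and PSBW, beside 26.3%. Across all arrays 0 of 16 were called for SA over silwet, and 0 had an unadjusted p under 0.05 (limma), beside 0 and 238 of 13652 tested probe sets.

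**Figure D5:**
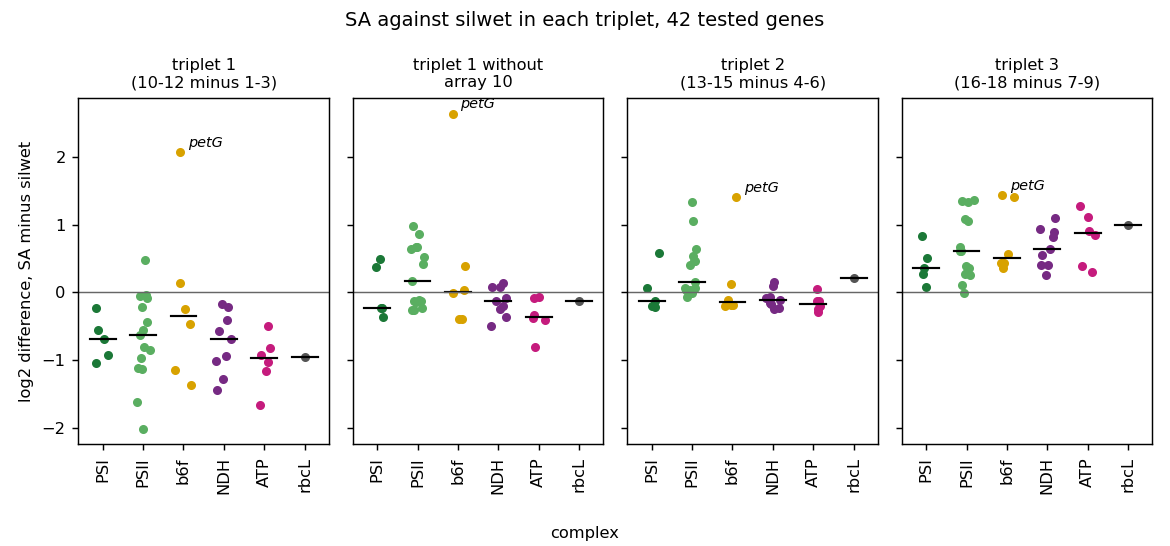
Log2 difference, SA minus silwet (vertical axis), for the 42 tested genes by complex (horizontal axis), in the first triplet, the first without array 10, the second and the third; lines are medians within a complex. The median over all genes is -0.75, -0.12, 0.01 and 0.59 in these panels, and petG lies above 1 in each. The panel without array 10 is not matched by replicate number.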

How the data were processed

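The authors deposited linear MAS5 intensities, with 1 value per probe set, per the submitters' processing notes, which name MAS5. Its version and the array's genome build are not given in the sources used here. Each array's mean without its highest and lowest 2% lay between 100.008 and 100.01, so all 18 arrays share a scale and the depth behind a signal is unknown; median signals lay between 29.7 and 36.3. The primer used to make the labelled target is not given either, and plastid transcripts, unlike nuclear ones, mostly lack long poly(A) tails.

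Before log2, each array's own 20th percentile was used as a floor. Probe sets with a mean under the 40th percentile and 64 controls were left out, leaving 13652. All comparisons were fitted over all of them with limma 3.58.1 under R 4.3.3, using lmFit and an eBayes step with its trend and robust options, adjusted by Benjamini-Hochberg and called at 0.05. Fold changes of dim genes are understated by the floor. On simulated data, 90 of 100 probe sets changed by 1 (log2) were called for SA over silwet, among 13652, and 71 of 100 for replicate numbers. These rates hold for the simulated spread only. In the real data the mean signal of the genes described here had an SD of 0.79 on SA arrays and 0.30 on silwet arrays. The rates are therefore no measure of how many real changes of that size in these genes would be called.

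Names came from the platform annotation, updated through a RefSeq gene table of assembly TAIR10.1 that was used for names and gene lengths only; 13513 probe sets name 1 gene and 503 several. The members, gene lists and tests were chosen with earlier results of these data known. Named genes were those called in any comparison, in each complex those with the highest and lowest mean, the widest replicate 3 minus replicate 1 difference and the smallest p for SA over silwet, the extremes on array 10, and psbA, rbcL, petG and petL; of the nuclear lists, up to 3 genes each by p. The 9 nuclear lists covered photosystem I, photosystem II, electron carriers with cytochrome b6f, ATP synthase, NDH, Rubisco with its activase, antenna, plastid transcription and plastid RNA stability, of which the plastid lists have no named probe set here.

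Replicate numbers were checked for pairing: the correlation of deviations between SA and silwet arrays of the same number was 0.604, 0.562 and 0.627 for numbers 1, 2 and 3, and between different numbers -0.059 or below. Deviations were taken from each treatment's mean, so positive same-number values make the different-number values negative on balance. The latter are therefore no separate evidence of pairing. The numbers were taken as pairs on the strength of the same-number values, since the labels state no pairing, and the blocked fit is given where it changes a call. Alternatives were no floor, a value of 16 added before log2, no filter or a stricter one at the 60th percentile, median centring and quantile normalization. Others were eBayes without its trend and robust options, the block, and each array left out. The block without array 10, values within each replicate number and array 10 against SA arrays of its own number were chosen after seeing the data.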

Additional observations from a re-analysis of the deposited data

Results flagged for a closer look

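Of 52 groups of 9 arrays examined for single genes and complex means, 16 held 1 array far from the rest by Dixon's test at the 95% level. Chance gives about 1 in 20 independent groups, a rate that does not apply to this count, since the groups share the same arrays, rbcL enters as a gene and as the Rubisco mean, and psbH was named for its value on array 10. Array 10 was that array in 13 of them, always at the low end of the SA arrays. By gene its log2 signals were 4.81 for psaC, 9.43 for ndhI, 6.93 for ndhD, 4.28 for psbH, 8.05 for petB, 9.60 for atpB, 4.71 for rbcL and 5.49 for atpH. Its complex means were 7.5 for photosystem I, 6.46 for photosystem II, 6.64 for cytochrome b6f, 7.16 for the ATP synthase and 4.71 for Rubisco, which is rbcL alone. The other outlying values were high ones: ndhF at 5.18 on SA array 17, psaB at 11.24 on silwet array 3 and the photosystem I mean at 10.16 on the same silwet array.

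The SA minus silwet difference of atpE differed between triplets (limma's interaction F test, adjusted p = 0.0476), with -0.50 in the first, -0.13 in the second and 0.30 in the third.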

How the results depend on the processing

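With treatment-and-triplet groups in place of treatment in the fit, the number of genes called across replicate numbers was 12 in place of 4. The share of all tested probe sets called was then 8.49% in place of 0.711%. The count was 14 when array 10 was also left out, beside 9.74%. With the replicate number as a block, 5 in place of 1 were called in the first triplet, beside 18.5% in place of 12.3%. Across the SA triplets 13 in place of 4 were called, beside 37% in place of 30.1%. The triplet by treatment interaction had 6 in place of 1, beside 13.4% in place of 8.36%. Without array 10 as well, these were 2, 15 and 8, beside 16.7%, 34.2% and 13.6%. The second triplet then had 1 in place of 0, beside 0.498%. The block changed no other count of calls. In the first triplet the count was 3 with 16 added before log2, 3 with the filter at the 60th percentile, 2 with quantile normalization, 0 with median centring and 2 with eBayes without trend. Across the SA triplets quantile normalization gave 1. The interaction had 0 with no filter, with quantile normalization, with median centring and with eBayes without trend. Shares over all tested probe sets are not given for these alternatives other than the block. Changes in those counts therefore cannot be told from changes over the whole array.

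Leaving out 1 array at a time gave 2 to 7 genes across replicate numbers, with 2 without silwet array 2, 5, 6 or 7 and 7 without SA array 10 or 12. It gave 0 to 7 in the first triplet, with 0 without silwet array 3 and 7 without SA array 11. It gave 1 to 11 across the SA triplets, reaching 9 or 11 when SA array 11 or 12 was left out and only 1 or 2 when SA array 17 or 18 was, and 0 to 2 for the interaction, with 2 without SA array 10. Apart from the fit without array 10, the share of all tested probe sets called in each of these fits is not given. Whether the counts moved with the whole array was not tested. Of the values of single called genes, 137 kept their direction and side of the threshold when 1 array was left out and 43 lost the call, and 76 and 13 did so under the other alternatives; none reversed.

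Relative to the other chloroplast-encoded probe sets, the complex means on array 10 minus the other 8 SA arrays were -0.052 for photosystem I in place of -2.03, -0.85 for photosystem II in place of -2.83, 0.24 for cytochrome b6f in place of -1.74, 0.080 for the NDH complex in place of -1.90, -0.27 for the ATP synthase in place of -2.24 and -0.89 for rbcL in place of -2.87. The cytochrome b6f and NDH values thus changed sign, since the other plastid probe sets were low on array 10 too. Against SA arrays 13 and 16 alone, a comparison chosen after seeing the data, the means were -1.83 for photosystem I, -1.35 for cytochrome b6f and -2.19 for rbcL, and the other 3 moved by less than the spread of the 8 arrays. The cause of the other changes was not tested. The number of arrays limits the precision.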
